A study of Homo sapiens with 14 samples.

Results

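The baseline RNA structure of control cells was taken from 4 PARS-seq libraries, 2 digested with RNase V1 and 2 with nuclease S1. Members were the transcripts listed in all 4 of these libraries whose read starts passed a minimum in each, which gave 4568 of 4722 transcripts and 12338202 bases. The member closest to the limit had 258 read starts in its lowest library, and the closest transcript left out had 253. A symbol was paired with 1999 members, and the others are known here by a UCSC identifier alone. Except for U2 and the tRNA for arginine, the symbols came from a list that the study had chosen on these samples. It holds transcripts whose share of double-stranded bases changed when the RNA-editing enzyme ADAR1 was silenced. The change had to pass a minimum and to have the same direction in both replicates. With that exception, transcripts with a symbol, gene families and results that use a sequence come from such transcripts and not evenly from all members.

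PARS (parallel analysis of RNA structure) reads RNA folding from 2 nucleases that cut different forms of the same molecule. RNase V1 cuts bases in double-stranded or stacked RNA, and nuclease S1 cuts unpaired bases. The 5′ end of each sequenced fragment marks the cut, so the number of reads that start at a base counts how often it was cut. The PARS score of a base was the log2 ratio of its V1 to its S1 read starts, taken after the libraries were scaled to equal totals and 1 was added to each value. A positive score stands for more cutting by V1 and a negative one for more cutting by S1. Messenger RNA folds into short local helices closed by loops, and the RNA probed here had been purified away from its proteins.

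The cells were labelled HepG2, a line from a human liver tumour, stably transfected with scrambled siRNA, and their poly-A RNA was probed in vitro. The series holds 14 samples, of which 8 are PARS-seq libraries, and the other PARS-seq libraries come from cells transfected with siRNA against the RNA-editing enzyme ADAR1 (KD cells). The study calls its replicates biological, and the same control replicate was cut with S1 and with V1. Whether they came from separate cultures is not stated, and p-values measure the spread between these libraries. In the control RNA-seq sample, 13 of 14 hepatocyte and HepG2 marker genes were found, and all 13 were below 1 RPKM, with 10 at 0 and a sum of 0.147 RPKM. The sum over the found fibroblast markers was 60.1 RPKM, of which COL1A1 made up 54.7 RPKM, while COL1A2 of the same list had 0.12 RPKM. The stellate cell markers summed to 15.0 RPKM, of which ACTA2 made up 14.5 RPKM. The blood and endothelium markers summed to 0.325 and 0.620 RPKM. The defining liver markers of the labelled line were thus at or near 0, and the cells are called control cells below.

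The control libraries held 105584159 and 112971361 read starts (S1) and 102727180 and 106049447 read starts (V1) on the transcripts listed in all 4. A single transcript without a symbol, uc022brd.2, took 26.0% and 39.1% of the S1 read starts and 38.2% and 46.4% of the V1 read starts. Of the member bases, 58.7% had a read start in at least 1 library.

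Hairpins that can be read from the sequence show what the scores mean. The sequences below were taken from the GENCODE annotation of GRCh37 (hg19) for members whose position in an annotated transcript was recovered from their cutting pattern. Each has a perfect Watson-Crick stem of at least 8 pairs, and the loop is in capitals.
EBNA1BP2: tcggattcGGAGTCGgaatccga
PRDX4: tacccgggaGAGGCAtcccgggta
HSPD1: gattagcaAAGGtgctaatc
CD46: aagagaacTCCGTATgttctctt
ABHD17C: acatttaaAAGCCttaaatgt
The hairpin of EBNA1BP2, a ribosome biogenesis factor, lies in coding sequence at chr1:43637749-43637771 on the minus strand. Its 7-base loop held 13514 and 7679 read starts in the S1 libraries and 89 and 83 in the V1 libraries. Its 5′ arm showed the opposite, with 23 and 17 read starts for S1 and 3613 and 2132 for V1. The hairpin of PRDX4, a peroxiredoxin of the endoplasmic reticulum, lies in coding sequence at chrX:23685865-23685888 on the plus strand. Its loop held 2576 and 1688 S1 read starts against 10 and 1 for V1, and the 3′ arm held 66 and 80 for S1 against 429 and 435 for V1. That of HSPD1, the mitochondrial chaperonin HSP60, lies in coding sequence at chr2:198361882-198361901 on the minus strand. Its 4-base loop held 3857 and 2790 S1 read starts against 68 and 72 for V1. In the 3 loops, and in the arms of EBNA1BP2 and PRDX4 given here, the libraries of the 2 enzymes did not overlap.

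The hairpin of CD46, a complement regulator on the cell surface, lies in the 3′UTR at chr1:207967729-207967751 on the plus strand. Its loop scored -4.66 and -3.21 in the 2 replicates and its 5′ arm 3.78 and 2.05. Not every perfect stem gave this pattern. The hairpin of ABHD17C, a depalmitoylating enzyme, lies in the 3′UTR at chr15:81047828-81047848 on the plus strand and has a stem of A and T pairs but for 1. Its loop held 307 and 655 S1 read starts against 122 and 549 for V1, and the loop scored -0.81 and 0.036.

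In all, 608 such hairpins were found in 469 members, and 251 of them, in 230 members, had at least 100 read starts. Over these, the loops made up 24.2% of the bases and took 89.6% and 88.3% of the S1 read starts but 3.89% and 5.28% of the V1 read starts. The 5′ arms took 66.6% and 64.0% of the V1 read starts, and the 3′ arms 29.5% and 30.7%. The mean score was 1.94 ± 1.24 and 1.77 ± 1.19 in the 5′ arm (SD over hairpins), -2.61 ± 1.59 and -2.37 ± 1.51 in the loop, and 1.12 ± 1.10 and 1.00 ± 1.11 in the 3′ arm. The stem scored above the loop in both replicates in 95.9% of 246 hairpins, by a median of 4.04 and 3.62, and below it in both in 2.44%. The 5′ arm peaked 5 bases before the loop, at 3.30 and 3.11, and the score at the last paired base before the loop was 0.33 and 0.21. The 3′ arm peaked at the fifth base after the loop, at 1.75 and 1.58. Hairpins of 1 transcript share libraries and depth, and these values are descriptions with no test. They cover only members whose position was recovered from the cutting pattern.

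**Figure D1:**
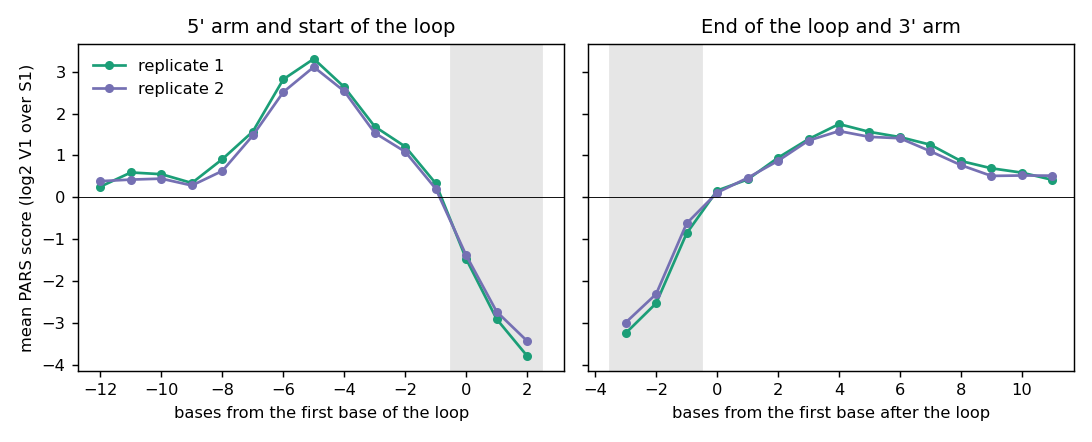
Mean PARS score (log2 V1 over S1) around the loops of 251 perfect hairpins, by bases from the first base of the loop (left) and from the first base after it (right), with 1 line for each replicate and loop bases shaded. The score rises to 3.30 and 3.11 in the 5′ arm, falls to -3.78 and -3.43 at the third base of the loop and returns to 1.75 and 1.58 in the 3′ arm.

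Across whole transcripts the score followed the pairing that folding energies predict. Pairing was predicted with RNAplfold from the sequence alone in 1725 members. Bases with a predicted probability of being unpaired below 0.05 had a mean score of 1.26 and 1.12 in the 2 replicates, and those at 0.95 or above had -0.93 and -0.84. At bases with 100 or more read starts the same classes had 4.61 and 4.45 against -3.74 and -3.54. Of these deeply cut bases, 90.2% in the most paired class scored above 0 in both replicates, against 13.3% in the most unpaired class. Within a transcript, bases below 0.2 scored above bases over 0.8 by a median of 1.54 and 1.35, and did so in both replicates in all 1725 transcripts. The positions of these transcripts had been recovered with base preferences of the same libraries, and members that could not be placed are left out. The values are thus not independent of that step, as is also true of the other results that use the sequence.

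Each enzyme also cut some bases more than others. The identities of the bases from 6 before to 6 after the read start explained 22.1% and 22.1% of the variance of the score, in a linear model for each replicate. A score adjusted by this model kept the difference between paired and unpaired bases, at a median of 1.13 and 0.98, in both replicates in 99.9% of transcripts. The adjustment also removes pairing that goes with base composition, and the shares of the 2 cannot be told apart.

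**Figure D2:**
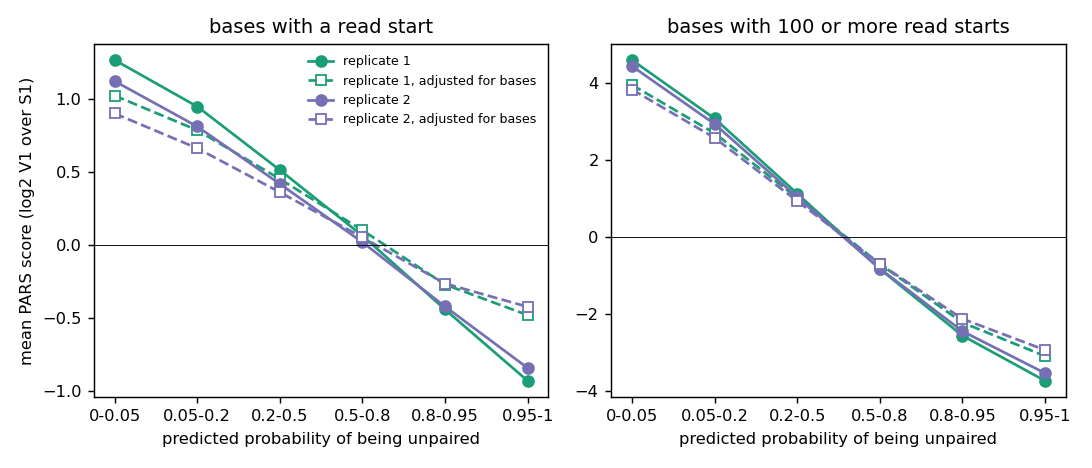
Mean PARS score (log2 V1 over S1) in 6 classes of predicted probability of being unpaired, for bases with a read start (left) and with 100 or more (right). Solid lines are the score and dashed lines the score adjusted for the bases at the cut, by replicate, and all fall from the most paired to the most unpaired class, from 4.61 and 4.45 to -3.74 and -3.54 for the deeply cut bases.

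Most bases were cut too rarely for a score of their own to be firm. Of 7237043 bases with a read start, 30.3% scored above 0 in both replicates and 19.9% below. Of the 348963 bases with 100 or more read starts over the 4 libraries, 46.7% had both V1 libraries above both S1 libraries and 45.7% had the reverse. By the score of each replicate, V1 was more than 4-fold S1 in both replicates in 35.5% of the 348963 bases, and S1 more than 4-fold V1 in 34.3%. The correlation of the score between replicates along a transcript had a median of 0.720 over transcripts. It was 0.635 in the 812 transcripts with up to 5 read starts per base and 0.928 in the 73 with the most read starts per base.

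The mean score of a transcript had a median of 0.260 in replicate 1 and 0.191 in replicate 2. The range from the 10th to the 90th percentile was 0.026 to 0.595 in replicate 1 and -0.032 to 0.558 in replicate 2. The order of transcripts was alike in the replicates, with a Spearman correlation of 0.908 for the mean score and 0.883 for the log2 ratio of the sums over the transcript (n = 4568). These correlations are across transcripts, which share the libraries.

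The libraries of the 2 enzymes were then compared for each transcript with limma, on log2 read starts with Benjamini-Hochberg adjustment over all 4568. V1 read starts were higher in 58 transcripts (1.27% of those tested) and S1 read starts in 190 (4.16%), at an adjusted p under 0.05. The counts and their split depended on the scaling. With TMM factors they were 287 and 404, and with totals that leave out uc022brd.2 they were 467 and 290. The median log2 ratio over all members was -0.09, 0.00 and 0.13 under the 3 scalings, so that a direction close to these values is set by the scaling. All 58 V1-higher transcripts stayed called under both scalings, and of the 190 S1-higher ones 187 and 179 did. The same control replicate was cut by both enzymes, and with the replicate number as a block in the fit, which leaves 1 residual degree of freedom, V1 read starts were higher in 895 transcripts (19.6%) and S1 read starts in 1527 (33.4%). All 58 and all 190 were among them. The V1-higher count was 129 without S1 replicate 1 and 37 without V1 replicate 1, and the S1-higher count was 427 without S1 replicate 2.

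**Figure D3:**
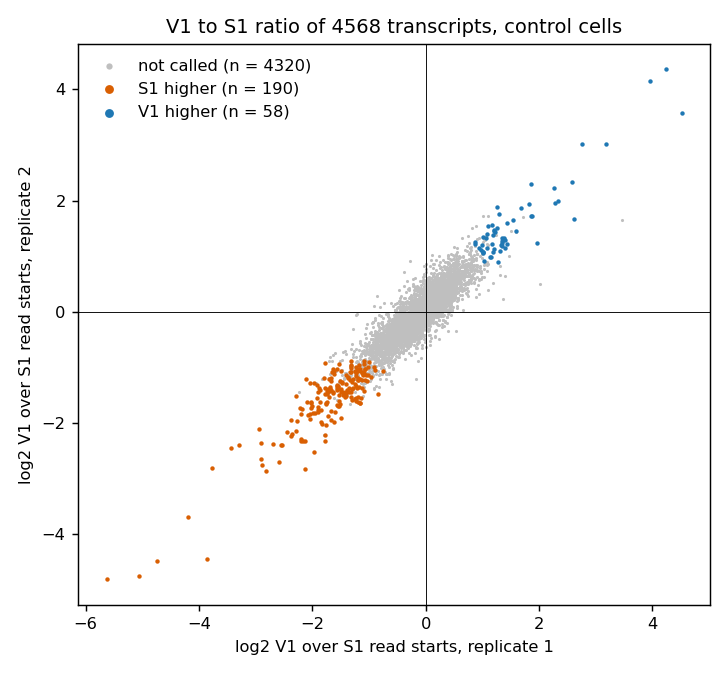
Log2 V1 over S1 read starts of 4568 transcripts in replicate 1 (x axis) and replicate 2 (y axis), 1 point for each transcript. The 58 transcripts with more V1 (blue) and the 190 with more S1 (orange) lie at the 2 ends of a cloud along the diagonal (Spearman correlation 0.883).

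Among named transcripts, PHF10 had the largest V1 excess. PHF10 encodes a subunit of the PBAF chromatin remodelling complex. The S1 libraries held 2215 and 2841 of its read starts and the V1 libraries 33573 and 47381, a log2 difference of 4.06 ± 0.24 (SE, limma adjusted p = 0.00060). The V1 libraries did not overlap with the S1 libraries. Its locus, chr6:170103998-170124596 on the minus strand, overlaps C6orf120 on the plus strand. EMG1, a methyltransferase of 18S ribosomal RNA, followed with 57047 and 85849 S1 against 333912 and 405409 V1 read starts (log2 2.46 ± 0.26, limma adjusted p = 0.0063). PRSS56, a serine protease, had 23201 and 16843 S1 against 82035 and 77589 V1 read starts (log2 2.08). RPS21, a protein of the small ribosomal subunit, had 99620 and 101317 S1 against 292674 and 260669 V1 read starts (log2 1.52). In each of these transcripts both V1 libraries lay above both S1 libraries. The other members among the 10 largest V1 excesses lay between log2 1.27 and 1.37. They were RFXANK, which serves MHC class II transcription, PYCR1 of proline synthesis, UQCRH of respiratory complex III, the ubiquitin ligase ZNRF2, the small GTPase RAP1A and the dynein light chain TCTEX1D2. Of these, UQCRH, RAP1A, PYCR1 and TCTEX1D2 were no longer called without V1 replicate 1, at log2 1.20, 1.03, 1.26 and 1.06, nor was PYCR1 without V1 replicate 2, at 1.40. The call of RAP1A was also lost when only transcripts with more than 1000 read starts in each library were tested.

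At the other end, among the 10 largest S1 excesses, LIFR, the receptor of leukemia inhibitory factor, had 46230 and 74588 S1 against 11438 and 12227 V1 read starts (log2 -2.25 ± 0.25, SE, limma adjusted p = 0.0067). CTSF, a lysosomal cysteine protease, had 9825 and 10410 S1 against 2140 and 1961 V1 read starts (log2 -2.24). ARF5, a small GTPase of the Golgi, had 47061 and 28833 S1 against 8844 and 7034 V1 read starts (log2 -2.16). The libraries of the 2 enzymes did not overlap in any of these. Others of these 10 lay between log2 -2.24 and -1.90. They were PDE6D, which carries prenylated proteins, COQ2 of coenzyme Q synthesis, TMCO6, TOMM6 of the mitochondrial import pore, DCTN6 of dynactin and the mannose phosphate isomerase MPI.

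The mean score per base and the ratio of sums are different quantities and could differ in sign. ARF5 had a mean score of 0.37 and 0.44 although its S1 read starts were 4.46-fold its V1 read starts, and S1 cut 1 of its bases in 38.3% and 33.2% of the read starts. The sequences below show the most cut bases, in capitals, with the 10 bases on each side.
ARF5, S1: cttttcgcggAtcttcgggaa
COQ2, S1: cttcagtgttGcaatgctggg
LIFR, S1: aaacagttgtGatgtgctgta
PAICS, S1: tgtgacccatGaagggaactc
CTSF, S1: agcaggaagaAaattttctga
CTSF, V1: ggtaatgagcAggaagaaaat
UQCRH, V1: ctgttgctgcTcgtgttgaat
The base of ARF5 lies in coding sequence, in chr7:127228576-127228596 on the plus strand, and held 18010 and 9583 S1 read starts against 10 and 11 for V1. That of COQ2 lies in coding sequence, in chr4:84188827-84188847 on the minus strand, and took 46.9% and 43.2% of the S1 read starts of the transcript. That of LIFR lies in the 3′UTR, in chr5:38475509-38475529 on the minus strand, and took 26.8% and 30.1%. That of PAICS, an enzyme of purine synthesis, lies in the 3′UTR, in chr4:57327162-57327182 on the plus strand, and held 7349 and 5657 S1 read starts against 1 and 8 for V1.

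CTSF was dominated by a base for each enzyme, 7 bases apart on chromosome 11 (chr11:66331088-66331108 and chr11:66331095-66331115, minus strand). The S1 base took 43.2% and 45.5% of the S1 read starts and the V1 base, 5′ of it, 51.1% and 52.3% of the V1 read starts. In UQCRH a base of the 5′UTR, in chr1:46769400-46769420 on the plus strand, took 46.3% and 41.3% of the V1 read starts and held 5 and 4 S1 read starts.

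Over all members, the most cut base held a median of 8.76% and 8.45% of the S1 read starts of its transcript and 4.04% and 4.24% of the V1 read starts. It was the same base in both replicates in 75.1% of transcripts for S1 and 65.3% for V1. A base with at least 20% of the S1 read starts in both replicates occurred in 443 transcripts (9.70%), and for V1 in 126 (2.76%). Of the 190 S1-higher transcripts 105 (55.3%) held such an S1 base, against 7.57% of the transcripts with no call. This share is a description, since the read starts of that base are part of the sum that was tested. With the most cut bases of both enzymes left out, 187 of the 190 S1-higher and 57 of the 58 V1-higher transcripts kept their direction in both replicates. The median log2 ratio of the S1-higher transcripts then went from -1.56 and -1.43 to -1.20 and -1.13.

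Where each enzyme had a single most cut base in both replicates (2265 transcripts), the V1 base lay 1 to 12 bases 5′ of the S1 base in 532 and 1 to 12 bases 3′ of it in 104. The hairpin profile has the same order, with its V1 maximum 5′ of the loop. In the transcripts with a known position, the most cut S1 base was G in 64.8% of 1279, against 24.9% of all bases, and C in 1.02%. The next base was A in 59.97%. The most cut V1 base was T in 44.6% and C in 31.4% of 1115, and the base before it was C in 60.5%. The positions had been recovered with base preferences of the same libraries, so these shares are not independent of that step.

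The enzymes were next compared in smaller stretches. In 50-base windows, the share of the transcript's read starts was tested with limma, which does not depend on the scaling of libraries. Of 187201 windows, 50269 were V1-rich (26.9%) and 26437 S1-rich (14.1%), and with the replicate block 73326 (39.2%) and 42461 (22.7%). The median log2 difference of the shares over all windows was 0.345, toward V1. S1 read starts were also more concentrated, with a median of 8.76% and 8.45% at the most cut base against 4.04% and 4.24% for V1. The part of this in the split was not tested, so the split does not count paired against unpaired stretches. Of the 4565 transcripts with a window tested, 4401 held windows of both kinds. The shares of a transcript add up to its whole in each library, so a window with a larger share goes with smaller shares elsewhere. Among transcripts with a symbol, the largest V1 excess was in coding sequence of PGAM1, a glycolytic phosphoglycerate mutase, at bases 501 to 550 of the transcript. That window held 7 and 3 S1 against 1186 and 788 V1 read starts (log2 difference of the shares 7.83 ± 0.37, SE, limma adjusted p = 1.8e-05). In SDHA, the flavoprotein of succinate dehydrogenase, bases 1501 to 1550 held 3 and 3 S1 against 736 and 561 V1 read starts. Both V1 libraries stood far above both S1 libraries in these windows.

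The S1-rich windows included the end of PHF10, whose bases 1651 to 1692 had 36 and 75 S1 read starts and 0 in both V1 libraries. A count of 0 allows up to 3 read starts, which are 0.0089% and 0.0063% of its V1 read starts, against 1.63% and 2.64% of its S1 read starts. In EMG1, bases 1001 to 1050 held 1980 and 3527 S1 against 31 and 64 V1 read starts. PHF10 and EMG1, the named transcripts with the largest V1 excess in sum, thus each held a window with a large S1 excess in share. In RNASEH2C, a subunit of ribonuclease H2, a window of the 3′UTR took 42.4% and 40.6% of the S1 read starts and 0.32% and 0.35% of the V1 read starts. In PXMP2, a peroxisomal membrane protein, the window over the start codon took 53.3% and 30.2% of the S1 read starts and 0.29% and 0.38% of the V1 read starts.

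The score fell from the 5′ end to the 3′ end. In transcripts of 1000 bases or more it went from 0.385 and 0.298 in the first of 10 equal parts of the length to 0.021 and 0.009 in the last. It was 0.338 and 0.267 over the first 100 bases, 0.303 and 0.241 in the middle, and 0.007 and -0.005 over the last 200 bases. Windows gave the same order, with 33.1% V1-rich in the first 100 bases, 27.4% in the middle and 11.2% in the last 200 bases, against 26.9% of all windows. The share of S1-rich windows was 10.8%, 14.0% and 14.9%. Read starts were sparse at both ends, where 32.0% of the first 100 bases and 42.9% of the last 200 had a read start, against 60.3% in the middle. At bases with 20 or more read starts, the first 100 bases scored -0.033 and 0.030, below the middle at 0.156 and 0.149. The last 200 bases stayed lowest there, at -0.546 and -0.508. The first and last of the 10 parts had -0.034 and 0.022, and -0.544 and -0.495.

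**Figure D4:**
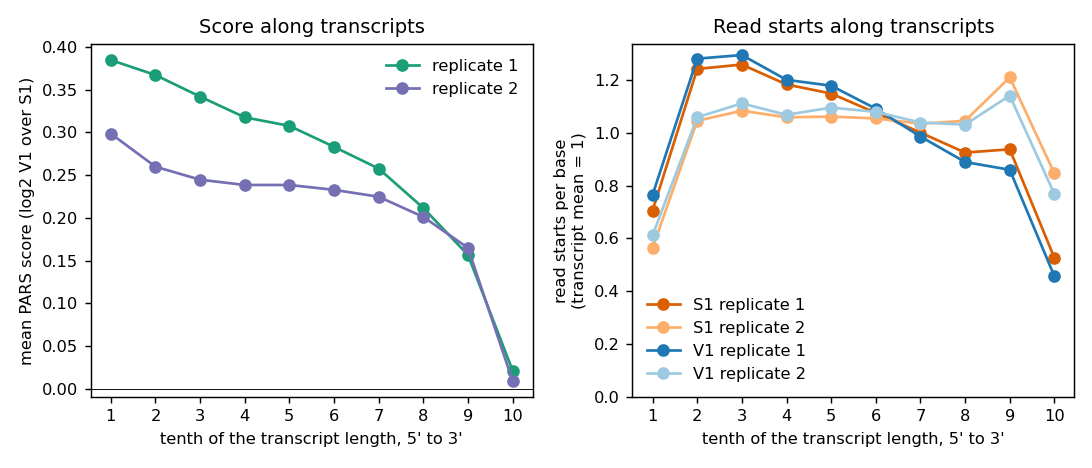
Mean PARS score (log2 V1 over S1, left) and read starts per base relative to the transcript mean (right) in 10 equal parts of the length, in transcripts of 1000 bases or more, with 1 line for each replicate or library. The score falls from 0.385 and 0.298 to 0.021 and 0.009, and read starts are lower in the first and last part than in the others in all 4 libraries.

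The length of a transcript had no such relation to the ratio of sums, with a Spearman correlation of 0.051 in replicate 1 and -0.058 in replicate 2 (n = 4568). The mean score fell with length, at -0.167 for the mean of the replicates. Its median went from 0.313 and 0.304 in the 518 transcripts of 201 to 1000 bases to 0.196 and 0.103 in the 270 over 6000 bases. The 88 transcripts of up to 200 bases had a median of -0.144 and -0.116. Depth moved with this measure too, since the mean score had a Spearman correlation of 0.347 with read starts per base, and length one of -0.372. The part of depth in the relation to length was not tested.

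By region, the 5′UTR had the highest score and the 3′UTR the lowest. Over 1254 transcripts with all 3 regions, the median was 0.450 and 0.355 in the 5′UTR, 0.320 and 0.241 in the coding sequence and 0.114 and 0.092 in the 3′UTR. After adjustment for the bases at the cut the order changed, to 0.106 and 0.028, 0.316 and 0.230, and 0.178 and 0.174. The difference between coding sequence and 3′UTR kept its sign, while the 5′UTR went from above to below the coding sequence. Without adjustment, at bases with 20 or more read starts, the medians were 0.824 and 0.725 in the 5′UTR (453 transcripts), 0.267 and 0.250 in the coding sequence (1653) and 0.011 and 0.025 in the 3′UTR (1363). The GC content of the regions was 61.9%, 48.0% and 39.2%, and RNAplfold predicted 55.0%, 52.1% and 51.2% of their bases as paired. Of the windows in these regions, 36.3% of 1954 were V1-rich in the 5′UTR, 28.6% of 41676 in the coding sequence and 22.2% of 26749 in the 3′UTR.

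The start and stop codons stood out as low points. The stop codon had a mean score of -0.87 in both replicates, against 0.26 and 0.28 over the bases 13 to 60 before it and 0.28 and 0.27 over the bases 13 to 60 after it. The start codon had -0.29 and -0.25, against 0.54 and 0.43 before it and 0.51 and 0.39 after it. Adjusted for the bases at the cut, the stop codon had -0.095 and -0.14 between flanks of 0.26 and 0.27 before and 0.21 and 0.20 after. The adjusted start codon had 0.11 and 0.095, against 0.23 and 0.12 before it and 0.35 and 0.22 after it. Both dips were smaller after the adjustment, and the cause was not tested.

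**Figure D5:**
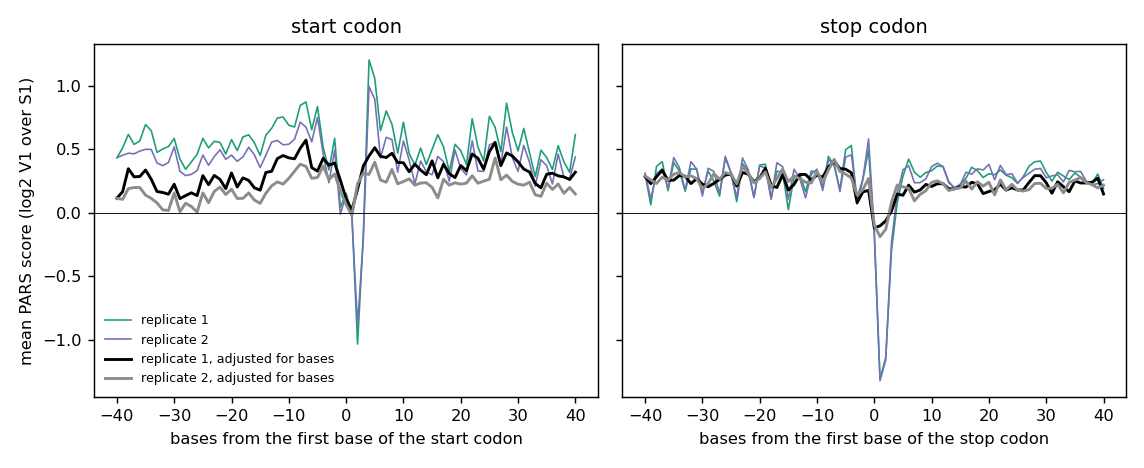
Mean PARS score (log2 V1 over S1) by bases from the first base of the start codon (left) and the stop codon (right), for each replicate (thin lines) and after adjustment for the bases at the cut (thick lines). The stop codon dips to a mean of -0.87 over its 3 bases in both replicates, and to -0.095 and -0.14 once adjusted.

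Inside the coding sequence the score had a period of 3 bases. The mean over 1672 transcripts was 0.224 and 0.160 at the first codon position, 0.471 and 0.383 at the second and 0.404 and 0.316 at the third. The first position was the lowest in both replicates in 76.3% of transcripts. In the same frame, the 3′UTR had 0.154, 0.156 and 0.156 in replicate 1, with no such period. After adjustment for the bases at the cut the positions had 0.317, 0.335 and 0.349 in replicate 1, and the first was the lowest in both replicates in 23.1% of transcripts.

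The mean score was also set beside GC content and RNA level. The Spearman correlation of GC content with the mean score was 0.566 and 0.726 over 1725 transcripts, and -0.181 and 0.039 once the score was adjusted. The RPKM of the control RNA-seq sample had a Spearman correlation of 0.583 and 0.702 with the mean score over 1777 genes, and 0.115 and 0.299 with the ratio of sums. It also had one of 0.480 with read starts per base. Ribo-seq over RNA-seq had correlations of -0.348 and -0.498 with the mean score for the first Ribo-seq sample and -0.372 and -0.526 for the second. With the ratio of sums they were -0.069 and -0.243 for the first and -0.036 and -0.206 for the second. The RNA-seq value is the denominator of this measure. These are descriptions across genes that share the same libraries.

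Gene families were described over 14 lists of members with a symbol. Of the 1999 such members, 25 had more V1 and 76 more S1 read starts, beside 58 and 190 of all 4568. Cytosolic ribosomal protein transcripts were cut deeply, with a median of 287 read starts per base, and had a median mean score of 0.554 and 0.418, against 0.260 and 0.191 for all members. Of 35, 2 had more V1 (RPS21 and RPL13) and 7 more S1 read starts, beside 1.27% and 4.16% of all transcripts, with a median log2 ratio of -0.04 beside -0.09 for all members. With the replicate block the counts were 6 and 14, beside 19.6% and 33.4% of all transcripts. RPL24 had 158678 and 109642 S1 against 41207 and 30407 V1 read starts (log2 -1.83), and RPL37 had 823440 and 1036730 S1 against 282672 and 307847 V1 read starts (log2 -1.58). RPL37 was not called without either V1 replicate, at -1.54 and -1.62. The other S1-higher members were RPL12, RPS26, RPL35A, RPL5 and RPS4X. Members of the same ribosomal subunit thus lay at both ends.

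Of 35 mitochondrial ribosomal protein transcripts, 3 had more S1 (MRPL53, MRPL14 and MRPS15) and 0 more V1 read starts, and the median log2 ratio was -0.27 beside -0.09 for all members. Of all transcripts, 4.16% had more S1 and 1.27% more V1. The counts were 5 and 1 with TMM factors, beside 404 and 287 of all 4568. They were 4 and 2 with totals without uc022brd.2, beside 290 and 467 of all 4568, and 15 and 6 with the replicate block, beside 33.4% and 19.6%. Of 37 oxidative phosphorylation transcripts, UQCRH and NDUFB3 had more V1, and NDUFA1, ATP5B and ATP5H more S1 read starts, beside 1.27% and 4.16% of all transcripts. With the replicate block the counts were 14 and 11, beside 19.6% and 33.4%. NDUFA1, a small subunit of complex I, had 18515 and 18441 S1 against 5539 and 6422 V1 read starts (log2 -1.57). ATP5B, the catalytic subunit of ATP synthase, had 289977 and 302201 S1 against 123220 and 97517 V1 read starts (log2 -1.37).

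In the proteasome (17), translation factors (16), chaperones (24), helicases (11), zinc finger proteins (15), aminoacyl-tRNA synthetases (9), glycolytic enzymes (9), SR and hnRNP splicing factors (8) and selenoproteins (4), 0 transcripts passed the limma test, beside 5.43% of all transcripts in either direction. With TMM factors the counts in either direction were 4, 2, 6, 2, 0, 2, 0, 0 and 2 in the same order, beside 15.1% of all transcripts. With the replicate block they were 3, 6, 8, 1, 2, 1, 1, 2 and 2 with more V1 and 6, 5, 5, 3, 6, 2, 3, 3 and 1 with more S1, beside 19.6% and 33.4% of all transcripts. In a list this short, a count of 0 is close to the share over all transcripts. The median log2 ratios of these lists ran from -0.11 in the proteasome to 0.30 in the selenoproteins. The medians of the proteasome, synthetases, glycolytic enzymes, helicases, splicing factors and cytosolic ribosomal proteins turned from below to above 0 under at least 1 other scaling. Of these lists, the glycolytic enzymes had the highest median mean score (0.562 and 0.511), and the translation factors had 0.520 and 0.442.

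Of 23 noncoding RNAs with a symbol, 1 had more S1 and 0 more V1 read starts, and of 6 small nuclear and nucleolar RNAs 1 had more S1 and 1 more V1. Over all transcripts the shares were 4.16% with more S1 and 1.27% with more V1, and 1 of 23 is close to the first. With the replicate block the counts were 8 and 6 in the first list and 1 and 3 in the second, beside 33.4% and 19.6% of all transcripts. The S1-higher one in both lists was RNU4ATAC, the small nuclear RNA of the minor spliceosome, with 2636 and 1829 S1 against 756 and 554 V1 read starts (log2 -1.70). It was not called without V1 replicate 2, at -1.45. The V1-higher one was U2, which pairs with the branch point of introns. It had 91310 and 122311 S1 against 228987 and 280905 V1 read starts (log2 1.33), and was likewise not called without V1 replicate 2, at 1.20. A single base held 83.3% and 79.1% of its S1 read starts and another held 67.8% and 61.7% of its V1 read starts. The tRNA for arginine had 540 and 902 S1 against 344 and 356 V1 read starts (log2 -0.93 ± 0.35, SE, limma adjusted p = 0.18) and did not pass the test, although its libraries did not overlap. With the replicate block it passed (limma adjusted p = 0.0081).

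Among transcripts that the study names, PAICS had 32697 and 27266 S1 against 16028 and 14920 V1 read starts (log2 -0.88, limma adjusted p = 0.065). PSMB2, a proteasome subunit, had 7913 and 7723 S1 against 8628 and 9192 V1 read starts (log2 0.25). F11R, a junctional adhesion molecule, had 7230 and 6432 S1 against 5496 and 4717 V1 read starts (log2 -0.36). None of these 3 passed the test. With the replicate block PAICS (limma adjusted p = 5.1e-05) and F11R (0.013) did, and PSMB2 did not (0.057). EEF1A1, the elongation factor that brings tRNAs to the ribosome, had the most read starts of the transcripts with a symbol, and its libraries overlapped. Its log2 ratio was 0.43 ± 0.44 (SE), or ± 0.16 with the replicate block, where it passed the test (limma adjusted p = 0.040). The ratio turned negative without V1 replicate 1 and without S1 replicate 2.

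The ratios of the KD cells were then set beside those of the control cells. The difference of the log2 ratio between KD and control cells passed the limma test in 0 of 4568 transcripts (0.0%), with 9 at an unadjusted p under 0.05, and in 1 without S1 control replicate 2. The median difference was 0.037. This fit had no replicate block, and 0.197% of its unadjusted p-values (limma) lay under 0.05. That is fewer than a well-calibrated test gives when nothing differs, so the count does not show that the ratios were the same. PHF10 had a log2 ratio of 4.03 and 4.42 in the KD cells, against 3.96 and 4.15 in control cells, a difference of 0.17 ± 0.41 (SE). LIFR had -2.50 and -2.36 against -1.98 and -2.52, a difference of -0.18 ± 0.41 (SE). All 58 V1-higher transcripts were above 0 in both KD replicates and all 190 S1-higher ones below 0, against 1450 and 1870 of all 4568. The KD libraries were not used to make those calls.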

How the data were processed

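Poly-A RNA of control cells was digested with nuclease S1 or RNase V1, and the authors aligned the reads with Bowtie2 to UCSC knownCanonical transcripts (hg19) after cutadapt trimming, keeping unique alignments. Reads from repeats and near-identical copies are therefore under-counted, and how strand was used beyond read orientation is not given in the sources used here. The deposited files list, per the file headers and values, the number of read starts at each base of a transcript, in lists and not as one count per gene. The authors also deposited RPKM values per gene, of which the RNA-seq and Ribo-seq columns were used, and 4 columns that average libraries of both enzymes were not. The S1 control replicate 1 file lists 4722 transcripts, which sets the common set.

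Read starts were scaled to equal totals over the common transcripts. Transcripts and 50-base windows (at least 50 read starts over the 4 libraries) were tested two-sided with limma 3.58.1 (R 4.3.3, trend on the mean), after 0.5 was added and logarithms were taken. The fit was also run on simulated libraries, drawn without the replicate effect that S1 and V1 share in these data. That run therefore does not test the fit under such pairing. The replicate numbers pair the libraries, since the study cut each control replicate with both enzymes. The differences between replicates in S1 and V1 correlated at 0.749 over 4568 transcripts. The comparison was planned without this block, and the blocked values are given beside it. The replicates of an enzyme differed by far more than counting noise. Symbols were placed on GENCODE transcripts (GRCh37) by matching base preferences of cutting, which placed 1725 of 1999 members with a symbol. Of 35 transcripts whose length equals an annotated one, 29 were placed at its first base. Pairing was predicted with RNAplfold 2.7.2 (window 150, span 100). Python 3.11.15, numpy 2.4.6, pandas 2.3.3 and scipy 1.17.1 were used.

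The members and lists were chosen with earlier results of these data known. Named were the 10 largest V1 and S1 excesses among called, non-overlapping transcripts of more than 200 bases with a symbol, transcripts the study names, the 5 largest windows of each kind, the ends of each list and the most cut transcripts. Genes of the lists that were called, the hairpins and the most cut bases were chosen after their values were seen. MDM4, XIAP and BPNT1 were not analysed here. One of the 10 largest S1 excesses is not reported here. Other scalings, filters, added read starts, window lengths, left-out libraries and a replicate block were tried. The adjustment for bases at the cut was added after seeing the data.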

Additional observations from a re-analysis of the deposited data

How the results depend on the processing

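The transcript count of 248 became 691 with TMM factors (287 with more V1 and 404 with more S1) and 757 with totals without uc022brd.2 (467 and 290). With a replicate block it became 2422 (895 and 1527). Leaving out 1 library gave 187 to 501 transcripts, 37 to 129 with more V1 and 134 to 427 with more S1, and the lone library was taken to vary like the others. The window count of 76706 of 187201 became 32855 of 108160 with 100-base windows (21549 V1-rich and 11306 S1-rich) and 115787 with the block (42461 S1-rich). With at least 200 read starts, 32145 of 111806 were V1-rich and 21821 S1-rich. For the difference from KD cells, each control library was left out in turn, and no KD library was.

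The median mean score of 0.226 became 0.087 with 5 read starts added, 0.131 over every base and 0.310 with totals without uc022brd.2. The correlation with length of 0.00 became -0.167 for the mean score. The last 200 minus the first 100 bases went from -0.302 to -0.726 as a share and -0.526 at bases with 20 or more read starts. HSP90AA1 turned to 0.12 with totals without uc022brd.2. With a library left out it ran from -0.29 to 0.083 (without V1 replicate 2), ALDOC from -0.91 to 0.0016 (without S1 replicate 1) and EEF1A1 from -0.060 (without V1 replicate 1) to 0.91, with -0.013 without S1 replicate 2.

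Adjusting for the bases at the cut, added after seeing the data, took the paired minus unpaired score from 1.44 to 1.06 and coding sequence minus 3′UTR from 0.16 to 0.11. It turned 5′UTR minus coding sequence from 0.09 to -0.21, 5′UTR minus 3′UTR from 0.28 to -0.097 and the GC correlation from 0.646 to -0.071. The first minus second codon position went from -0.24 to -0.015, the start codon minus its flanks from -0.73 to -0.13 and the stop codon from -1.14 to -0.35. The cause of these changes was not tested. The planned edgeR test was not run, although the read starts summed per transcript, on which limma was run, could have served it.

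Scores at rarely cut bases are limited by depth, and windows of under 50 read starts were not tested. The labelled cell type and the markers differ, and 1 transcript holds a large share of each library.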
